A study of Homo sapiens with 12 samples.

Results

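After 24 h in AU-15330, 49 of 9965 genes of Z138 cells were lower than in DMSO although at 8 h they had been at most slightly lower, or higher. They were chosen by measured values, by a log2 difference between AU-15330 and DMSO of -0.8 or lower at 24 h together with one above -0.3 at 8 h. Each difference is that of the mean log2(normalised count + 60), and a gene entered when its mean normalised count was at least 300 in any group. About 60 normalised counts equal 1 CPM (a count scaled to library size). B cell receptor genes hold 1 of the 49 (CD79A) and immediate early genes hold 5 (EGR1, EGR3, FOS, ZFP36L1 and CCL3), and the account dwells on the 43 others.

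Z138 is a human mantle cell lymphoma line, wild type by its labels, and all values come from this 1 line. The groups were AU-15330 for 24 h, DMSO for 24 h and AU-15330 for 8 h, with 3 libraries each, and DMSO for 8 h with 2 libraries, the compound being at 0.5 µM. Of the 3 DMSO columns at 8 h, 2 carried the same name and identical values; they were counted as 1 sample, and which of replicates 2 and 3 they hold is not settled. The labels name the time point as the batch, so differences between 24 h and 8 h within an arm cannot be told apart from a batch, whereas AU-15330 and DMSO were compared within each time.

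AU-15330 is a degrader that brings an E3 ligase to the bromodomains of SMARCA2, SMARCA4 and PBRM1, and so removes the motors of the BAF family of chromatin remodellers. These machines slide and eject nucleosomes at enhancers, where B cell factors bind. Some of the genes treated here serve tasks of a mature B cell, though not all are particular to it. These tasks are showing peptides to T cells on MHC molecules and reading octamer sites at B cell promoters. Another is passing signals from the receptor to Ras, Rap and protein kinase C. Whether such genes are frequent among the members was not tested. MHC class II genes are switched on by CIITA, and class I genes, the immunoproteasome and the PA28 activator are known targets of interferon regulatory factors and of NLRC5.

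Estimated total counts ran between 50741217 and 67578992 per library. Of 8 markers of B cells and mantle cell lymphoma, 7 were above 60 normalised counts, among them CCND1, SOX11 and PAX5, and CD5 was near 0. Summed markers of T cells came to 101 to 133 normalised counts under AU-15330 at 24 h and 781 to 828 in DMSO at 24 h, mostly from CD3G, with CD3D near 0. The same sum was 259 to 345 under AU-15330 and 798 to 804 in DMSO at 8 h. Myeloid sums reached at most 75.8 and erythroid sums at most 44.4 in any library. Stromal markers summed to 36220.3 to 39506 under AU-15330 and 43370.3 to 46979 in DMSO at 24 h, nearly all of it VIM, which these cells express, while COL1A2 was near 0 and COL1A1 averaged 132 under AU-15330 and 1235 in DMSO at 24 h. The part of these markers in the results was not tested, and fewer cells of a kind and less RNA per cell cannot be told apart in such bulk RNA.

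All 49 genes lay below DMSO in every AU-15330 library at 24 h, which the choice itself brings about; 29.6% of the 12707 tested entries did so. All 49 were also called lower at 24 h by limma, with a Benjamini-Hochberg adjusted p below 0.05 on the deposited scale, against 26.2% of tested entries called lower and 24.7% called higher. Their 24 h differences spanned -2.68 to -0.80, with a median of -1.03, beside a median of 0.01 over all tested entries. At 8 h the span was -0.30 to 2.28 and the median -0.17, beside 0.02. In all, 617 genes reached -0.8 at 24 h. Of these 401 were at -0.8 or lower at 8 h as well, 167 were between, and 49 (7.94%) were above -0.3.

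**Figure D1:**
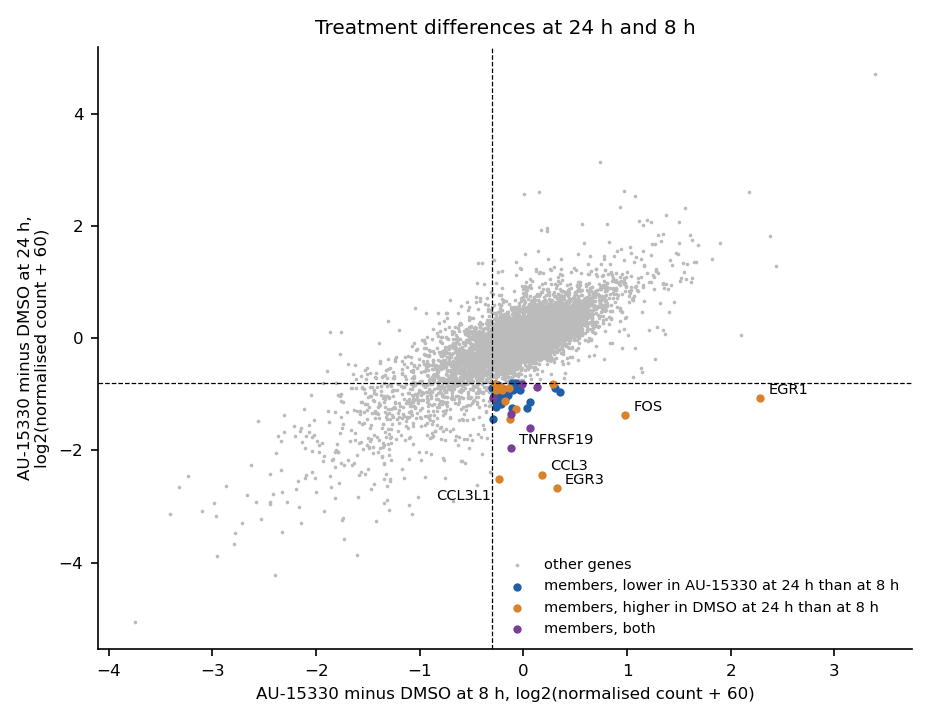
Log2 difference AU-15330 minus DMSO at 24 h (vertical axis) and at 8 h (horizontal axis), 1 point per gene, with dashed lines at the thresholds of -0.8 and -0.3. The 49 coloured genes fill the lower right corner, and most of them sit close to the 8 h line, with EGR1 (2.28 at 8 h) and FOS (0.98) far to the right.

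The 8 h values were cut at -0.3 by the rule, so they describe the choice. At 8 h 38 of the 49 were below 0, where 47.1% of tested entries were, and 21 were at -0.2 or lower. The limma fit called 14 of them (28.6%) lower at 8 h, against 21.4% of all tested entries, and 4 (8.16%) higher, against 22.9%, shares from which nothing is read. The 14 were POU2AF1, PDLIM1, RASGRP2, MPC1, HLA-DRA, KIAA1324, C12orf57, SPTBN1, PSME2, HLA-DPB1, PSMB10, TRAPPC6A, DPYSL2 and PRKCA, whose 8 h differences ran between -0.30 and -0.15, and the 4 were EGR1, FOS, TTC7A and PXK. Without DMSO replicate 1 at 8 h, 6 members were called lower at 8 h. The remaining 31 were called in neither direction at 8 h, which does not show that they were unchanged.

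The thresholds cut through a continuous spread. Just inside at 24 h stood RCBTB2 (-0.80), RASA3 (-0.81) and HMGN5 (-0.81), and just outside TCF3, PARP14 and MKNK2 (-0.76 each). Just inside at 8 h stood TRAPPC6A (-0.30), GOLGB1 (-0.29) and POU2AF1 (-0.29), and just outside NFATC1 (-0.32), GMFG (-0.32) and KLF13 (-0.32), which had 24 h differences of -1.05, -2.38 and -1.19. At the minimum level, IFFO2, CCL3L1 and KCNA3 were just inside, with 283, 353 and 369 normalised counts in DMSO at 24 h or, for IFFO2, 319 in DMSO at 8 h, and CD69, PPP1R1B and DLL4 were just outside.

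A large gap at 24 h can come about in either arm, and the members split on this. The rule itself requires the 24 h difference to be well below the 8 h one. Nearly every member must therefore differ between the times by 0.3 or more in at least 1 arm. The sorting describes only which arm that was. In 29 genes the level under AU-15330 was lower at 24 h than at 8 h by more than 0.3 on the log2 scale while DMSO did not rise by that much. Their difference between 24 h and 8 h under AU-15330 had a median of -0.83 (range -1.29 to -0.45), and the same in DMSO had a median of 0.06 (range -0.38 to 0.25). In 14 genes the DMSO level was higher at 24 h by more than 0.3 (median 1.45, range 0.36 to 4.06), and AU-15330 did not fall by 0.3 (median 0.11, range -0.29 to 1.00). Of these, CCL3L1, CCL3 and EGR3 reached the minimum level in DMSO at 24 h alone. In 6 genes, TNFRSF19, ITGB7, CELF2, GOLGB1, OSBPL3 and HMGN5, both mean differences passed 0.3. This sorting goes by means: 42 of the 49 kept their place without each library in turn, among them all 29 of the first kind, 10 of the 14 and 3 of the 6. The exceptions were HLA-F, SIPA1, KRBA1, NPL, GOLGB1, OSBPL3 and HMGN5. In GOLGB1 the DMSO difference between 24 h and 8 h was 0.31 ± 0.39, and -0.12 without DMSO replicate 2 at 24 h, and in OSBPL3 it was 0.62 ± 0.35, and 0.27 without DMSO replicate 1 at 24 h. The name of a fall by 24 h goes against the data where AU-15330 was itself called higher at 24 h, in CCL3, ZFP36L1, FOS and SPRY2. Of the 14, 9 were outside both the B cell receptor and the immediate early genes (CCL3L1, SPRY2, ENDOD1, KRBA1, ERC1, TXNDC11, HLA-F, SIPA1 and NPL).

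**Figure D2:**
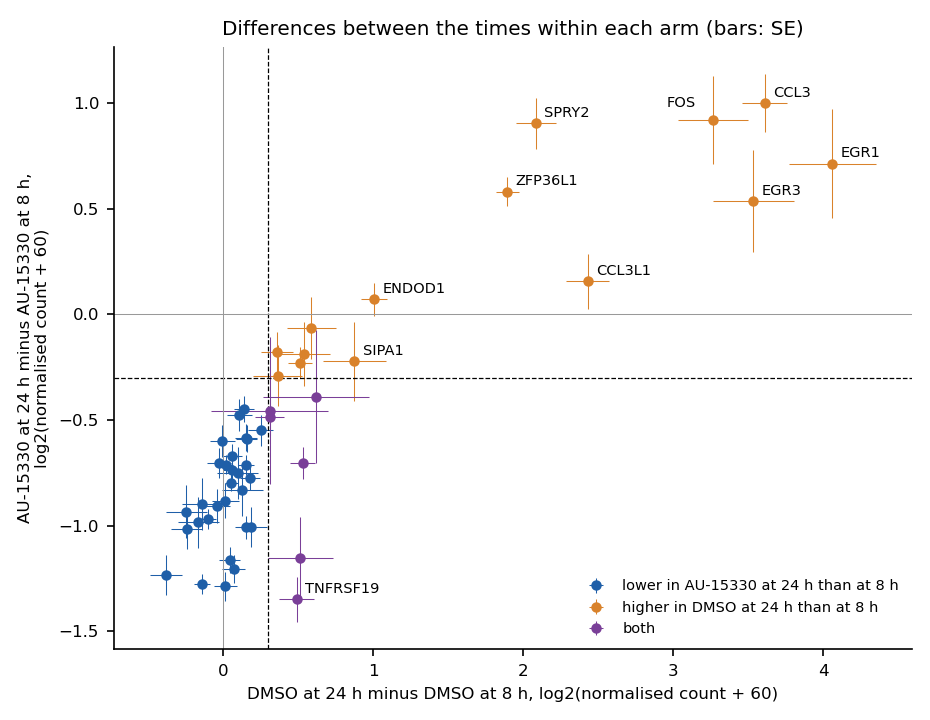
Log2 difference between 24 h and 8 h within AU-15330 (vertical axis) and within DMSO (horizontal axis) for the 49 genes, with standard errors as bars and dashed lines at -0.3 and 0.3. Blue genes lie low and near 0 on the DMSO axis, orange genes lie to the right, up to 4.06 for EGR1, and TNFRSF19 is both low (-1.35) and to the right (0.49).

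The fit called fewer genes than this sorting places. Between 24 h and 8 h, 34 of the 49 were called lower under AU-15330 (21.1% of tested entries were) and 4 higher (18.2% were), namely CCL3, ZFP36L1, FOS and SPRY2. In DMSO 15 were called higher at 24 h (6.56% were) and 1, COL9A3, lower (3.57% were). Of the 29 genes all were called lower under AU-15330 and none higher in DMSO. Of the 14, 12 were called higher in DMSO, but not KRBA1 and HLA-F, and 1, TXNDC11, was also called lower under AU-15330 (-0.23 ± 0.07). Of the 6, 3 were called in both arms (TNFRSF19, CELF2 and HMGN5), ITGB7 under AU-15330 alone, and GOLGB1 and OSBPL3 in neither. The difference of the treatment effects, 24 h less 8 h, was called below 0 in 46 members, against 11.0% of tested entries, and all these calls use the libraries that chose the genes. The exceptions were ERC1, GOLGB1 and OSBPL3. Over all entries this difference was called below 0 in 1396 and above 0 in 955, and under quantile normalisation in 968 and 1029. DMSO at 24 h against 8 h gave 454 lower and 834 higher entries, 1288 in all, and 630 and 701 under quantile normalisation; without DMSO replicate 1 at 24 h, replicate 1 at 8 h or replicate 2 at 8 h the total was 851, 688 or 663.

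**Figure D3:**
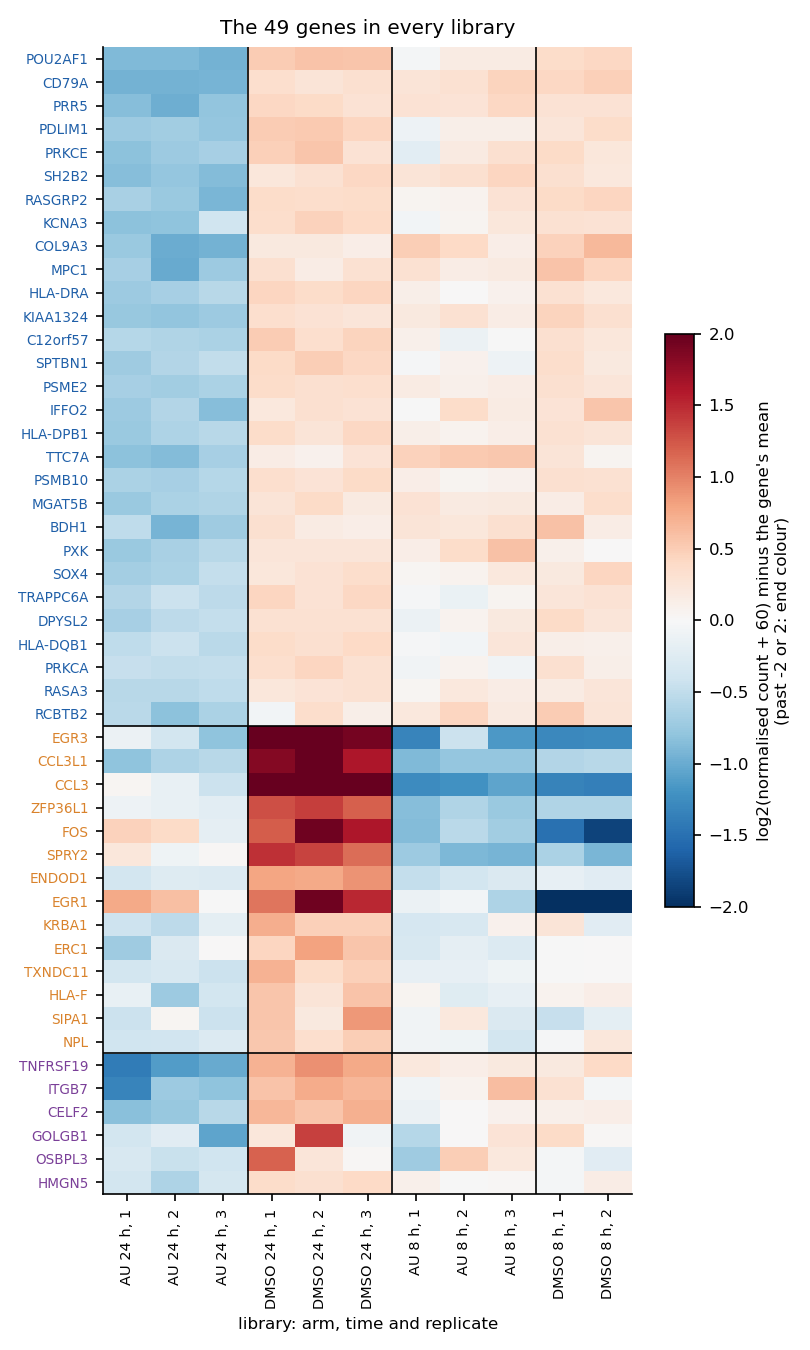
All 49 genes (rows) in the 11 libraries (columns), as log2(normalised count + 60) less the mean of the gene, with values past -2 or 2 in the end colours. The first 29 rows are bluest in the AU-15330 columns at 24 h, the next 14 are reddest in the DMSO columns at 24 h, with EGR1 and FOS also raised in 2 AU-15330 libraries there, and the last 6 show both by their means, GOLGB1 and OSBPL3 unevenly.

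Antigen presentation supplied 6 members, 3 of class II and 3 of class I. HLA-DRA, the alpha chain shared by all HLA-DR molecules (chr6:32439842-32445046, GENCODE release 29 on GRCh38), had 17481, 18288 and 19663 normalised counts in AU-15330 libraries and 38834, 37443 and 39025 in DMSO libraries at 24 h. At 8 h it had 31232, 29089.5 and 30626 under AU-15330 and 35676 and 33369 in DMSO. The 24 h groups did not overlap, and the difference was -1.06 ± 0.05 on the log2 scale (± SE throughout), against -0.19 ± 0.05 at 8 h. HLA-DPB1, the beta chain of HLA-DP (chr6:33075926-33087201), had 2421, 2649 and 2762 normalised counts in AU-15330 libraries and 5291, 4892 and 5433 in DMSO libraries at 24 h, and 4419, 4268 and 4468 under AU-15330 and 5046 and 4908 in DMSO at 8 h. HLA-DQB1, the beta chain of HLA-DQ (chr6:32659467-32668383), had 1159, 1221 and 1132 normalised counts in AU-15330 libraries and 2177, 2107 and 2220.4 in DMSO libraries at 24 h, and 1650.3, 1612 and 1981 under AU-15330 and 1819.7 and 1805 in DMSO at 8 h. Its 8 h groups overlapped, and its differences were -0.86 ± 0.07 at 24 h and -0.06 ± 0.08 at 8 h. These genes have 7 entries each, from copies of the MHC region on alternate haplotypes, so reads may be split among them. For HLA-DRA and HLA-DPB1 the entry whose counts are given is not on the primary assembly. The coordinates printed for them are those of the gene of that name on the primary assembly. For HLA-DQB1 the entry used is itself on the primary assembly. At 24 h the HLA-DRA entry used averaged 18477 normalised counts under AU-15330 and 38434 in DMSO, where all its entries summed to 39736 and 81647. Summed over entries the 24 h differences were -1.04 for HLA-DRA, -1.02 for HLA-DPB1 and -1.13 for HLA-DQB1, and the 8 h differences were -0.15, -0.20 and -0.28. For HLA-DQB1 the 8 h value thus depends on the entry: single entries ran between -0.51 and -0.06, and the one used is at the upper end.

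The chains that pair with these products also moved. For genes that are no members, fell and rose mean lower and higher than DMSO at the same time. They do not mean a change over time. HLA-DRB1, which pairs with HLA-DRA, had 5647 ± 235 normalised counts under AU-15330 and 8882 ± 374 in DMSO at 24 h (SD, n = 3 each), a difference of -0.65 ± 0.04 (limma adjusted p = 4.3e-07). At 8 h its difference was -0.02 ± 0.05 (adjusted p = 0.73, limma). HLA-DPA1 was lower than DMSO by 0.71 at 24 h and HLA-DQA1 by 0.36, both called by limma. Between 24 h and 8 h HLA-DQA1 differed by 0.08 ± 0.06 under AU-15330 and by 0.51 ± 0.07 in DMSO. HLA-DRB1, HLA-DPA1 and HLA-DQA1 have 6, 8 and 6 entries, and only the entry used is given for each. HLA-DPA1 overlaps HLA-DPB1 on the other strand. CD74, the invariant chain that guards the class II groove, fell by 0.67 at 24 h. CIITA, the master coactivator of class II genes, fell to 3234, 3370.1 and 3448 under AU-15330 at 24 h, against 7817, 7449.8 and 7906 in DMSO. Its differences were -1.19 ± 0.08 at 24 h (adjusted p = 5.7e-07) and -0.37 ± 0.09 at 8 h (adjusted p = 0.0087, limma). The 8 h calls of CIITA, CD74 and HLA-DPA1 were lost without DMSO replicate 1 at 8 h (adjusted p = 0.070, 0.10 and 0.20). RFX5, the DNA-binding subunit of the class II promoter factor RFX, went the other way, at 0.55 ± 0.04 and 0.72 ± 0.04. Of 20 tested genes of class II presentation, 17 were lower, 2 higher and 1 not called at 24 h, with a median of -0.69, and 9 were lower, 1 higher and 10 not called at 8 h, with a median of -0.17. For this and the lists below, 26.2% of all tested entries were called lower and 24.7% higher at 24 h, and 21.4% and 22.9% at 8 h.

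The promoters of the class II members are shown because class II promoters are known for a conserved block that ends in an inverted CCAAT box, the Y box. Windows run over 250 bases before to 50 after the first listed start (RefSeq, GRCh38.p14), and 43 of the 49 members had one (not CCL3L1, COL9A3, DPYSL2, EGR3, HLA-DRA and POU2AF1), 15 of them with several listed starts, with CCAAT or its reverse complement ATTGG in capitals. HLA-DPB1 is at chr6:33075740-33076039 on the plus strand and HLA-DQB1 at chr6:32666608-32666907 on the minus strand, read 5′ to 3′.
HLA-DPB1: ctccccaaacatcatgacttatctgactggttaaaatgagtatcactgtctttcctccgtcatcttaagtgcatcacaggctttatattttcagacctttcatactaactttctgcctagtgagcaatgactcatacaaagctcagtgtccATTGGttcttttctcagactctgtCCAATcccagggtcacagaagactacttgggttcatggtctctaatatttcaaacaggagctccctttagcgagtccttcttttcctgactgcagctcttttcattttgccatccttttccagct
HLA-DQB1: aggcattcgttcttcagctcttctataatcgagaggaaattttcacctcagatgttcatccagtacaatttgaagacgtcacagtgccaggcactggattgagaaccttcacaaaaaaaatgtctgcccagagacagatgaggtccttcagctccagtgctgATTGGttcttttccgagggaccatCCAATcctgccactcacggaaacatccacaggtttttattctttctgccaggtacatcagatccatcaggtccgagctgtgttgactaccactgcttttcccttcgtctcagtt
Both windows hold ATTGG first and CCAAT second, with 24 bases between their first letters. Counted with the start as 0, the matches begin at -99 and -75 in HLA-DPB1 and at -88 and -64 in HLA-DQB1. CCAAT alone is common: it was in 14 of the 43 member promoters (32.6%) and in 35.7% of all 27305 promoters.

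On the class I side, HLA-F encodes a nonclassical class I heavy chain (chr6:29722775-29738528). It had 382, 237 and 321 normalised counts in AU-15330 libraries and 663, 527 and 666 in DMSO libraries at 24 h, and 448, 355 and 375 under AU-15330 and 452 and 477 in DMSO at 8 h. By its means it belongs to the genes whose DMSO level was higher at 24 h than at 8 h (0.36 ± 0.16), though limma did not call this (adjusted p = 0.14). Its AU-15330 libraries were below its DMSO libraries at 8 h too, with differences of -0.87 ± 0.14 at 24 h and -0.22 ± 0.16 at 8 h. HLA-F also has 7 entries, and the one used is the lowest at 24 h. Single entries ran between -0.87 and -0.49 at 24 h and between -0.23 and 0.02 at 8 h. Their sum had differences of -0.89 and -0.22. PSMB10, an inducible catalytic subunit of the immunoproteasome (chr16:67934502-67937087), had 1689, 1660.2 and 1762 normalised counts in AU-15330 libraries and 3353, 3227 and 3464 in DMSO libraries at 24 h. At 8 h it had 2914, 2770.0 and 2807 under AU-15330 and 3333 and 3278 in DMSO, so every AU-15330 library was lower there too, with differences of -0.95 ± 0.05 at 24 h and -0.22 ± 0.05 at 8 h. PSME2, the beta subunit of the PA28 proteasome activator (chr14:24143362-24147570), had 2810.1, 2754 and 2884 normalised counts in AU-15330 libraries and 5843, 5626 and 5667 in DMSO libraries at 24 h, and 5024, 4806 and 4978 under AU-15330 and 5639 and 5342 in DMSO at 8 h. Its differences were -1.01 ± 0.04 and -0.15 ± 0.04, and its replicates lay within a narrow band in each group. PSME2 overlaps RNF31 on the other strand, and a second entry with identical values exists for it. PSMB10 overlaps another tested gene on the same strand.

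Partners of the class I members were also lower at 24 h. PSME1, the alpha subunit of PA28, had 2689, 2822 and 2617 under AU-15330 and 7739, 8128 and 8253 in DMSO at 24 h. Its differences were -1.55 ± 0.05 at 24 h (adjusted p = 8.4e-10) and -0.39 ± 0.05 at 8 h (adjusted p = 9.8e-05, limma), and at 8 h it lay beyond the threshold that PSME2 met. PSMB9, another immunoproteasome subunit, had differences of -1.31 ± 0.11 and -0.36 ± 0.12; the second was called (limma adjusted p = 0.029) but not without DMSO replicate 1 or 2 (0.15 and 0.064) or AU-15330 replicate 1 or 2 (0.057 and 0.078) at 8 h. PSMB8, the remaining one, fell by 0.68 at 24 h and was not called at 8 h (-0.10 ± 0.13, limma adjusted p = 0.56). PSMB8 and PSMB9 have 8 entries each, and only the entry used is given. B2M, the light chain of class I molecules, had differences of -0.98 ± 0.04 and -0.44 ± 0.04. NLRC5, the class I coactivator, was lower at both times, with differences of -1.76 at 24 h and -1.42 at 8 h, and its 2 effects were not shown to differ (limma adjusted p of the difference = 0.35). Among 22 tested genes of class I presentation, 18 were lower, 2 higher and 2 not called at 24 h (median -0.87), and 15 lower, 1 higher and 6 not called at 8 h (median -0.37).

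**Figure D4:**
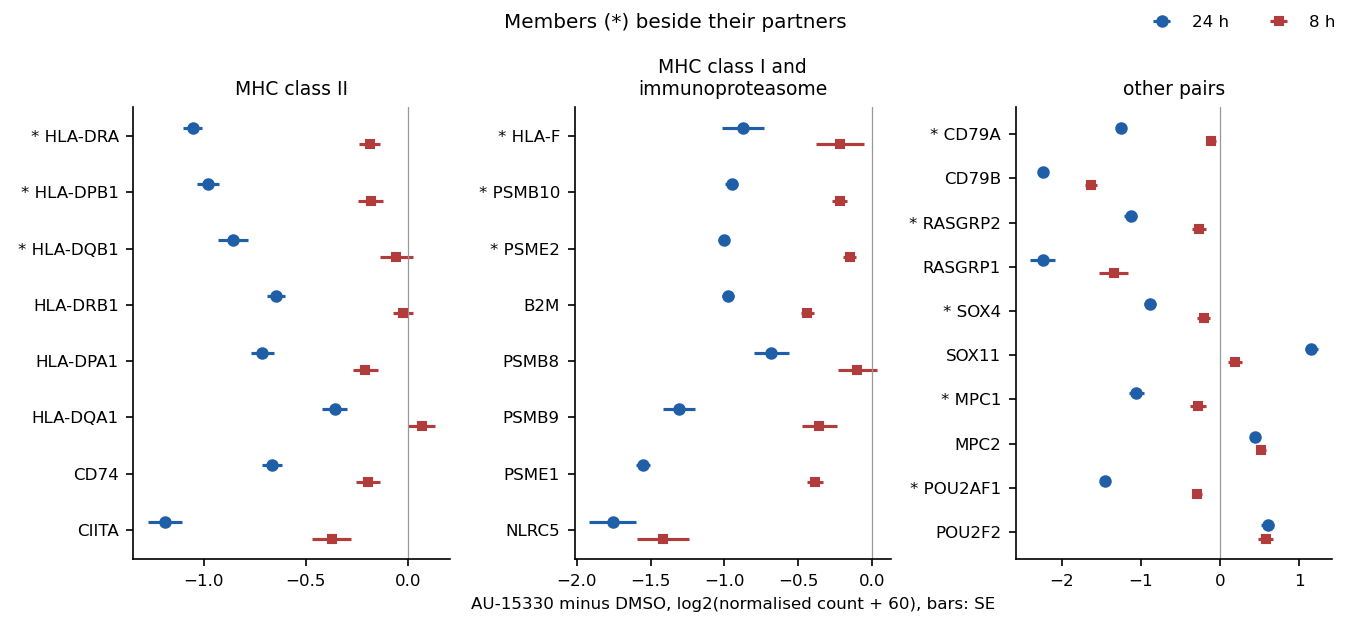
Log2 difference AU-15330 minus DMSO at 24 h (blue circles) and 8 h (red squares) with standard errors, for members (starred) and genes whose products pair with them or resemble them. In the MHC class II panel the 8 h values lie between -0.37 and 0.07 and every 24 h value is lower, while SOX11, MPC2 and POU2F2 in the right panel lie above 0.

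The class I windows are shown for a doublet of the interferon regulatory factor (IRF) motif, GAAA, any 2 bases, then GAAA, on either strand, which is in capitals. HLA-F is at chr6:29723184-29723483 on the plus strand, PSME2 at chr14:24146561-24146860 and PSMB10 at chr16:67936801-67937100 on the minus strand.
HLA-F: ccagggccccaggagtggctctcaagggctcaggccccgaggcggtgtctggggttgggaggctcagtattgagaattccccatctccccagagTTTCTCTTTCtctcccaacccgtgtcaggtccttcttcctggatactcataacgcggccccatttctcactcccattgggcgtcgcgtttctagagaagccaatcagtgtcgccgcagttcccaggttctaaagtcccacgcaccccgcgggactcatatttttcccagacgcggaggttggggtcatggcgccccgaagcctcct
PSME2: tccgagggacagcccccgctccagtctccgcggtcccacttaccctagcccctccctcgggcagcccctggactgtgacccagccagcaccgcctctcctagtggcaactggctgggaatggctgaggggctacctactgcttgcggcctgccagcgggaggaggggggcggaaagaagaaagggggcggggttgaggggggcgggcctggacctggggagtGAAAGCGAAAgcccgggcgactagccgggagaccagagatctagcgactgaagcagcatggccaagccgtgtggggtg
PSMB10: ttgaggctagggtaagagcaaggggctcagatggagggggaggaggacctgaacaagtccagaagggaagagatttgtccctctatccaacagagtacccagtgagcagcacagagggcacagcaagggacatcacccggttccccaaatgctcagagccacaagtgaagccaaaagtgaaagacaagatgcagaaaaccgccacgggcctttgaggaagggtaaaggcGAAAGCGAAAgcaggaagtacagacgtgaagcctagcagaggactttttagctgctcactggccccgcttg
The matched letters are the same in PSME2 and PSMB10, where they begin at -28 and -21, close to the start. In HLA-F the match is on the other strand at -156. Of the 43 member promoters 4 (9.30%) hold this doublet, the fourth being ZFP36L1, and 3.65% of all promoters do. These are descriptions of letters in a window, not of binding.

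Other motifs searched on both strands were in member promoters at shares given here beside all promoters. The PU.1-type ETS motif GAGGAAG was in 9 (20.9% beside 13.4%) and the ETS core CCGGAAG in 6 (14.0% beside 10.7%). The GC box GGGCGG was in 24 (55.8% beside 44.6%), the YY1 motif AAGATGG in 5 (11.6% beside 6.06%) and the TATA box TATAAA in 5 (11.6% beside 12.0%). The hypoxia core ACGTG, which the E-box CACGTG contains, was in 8 (18.6% beside 21.6%), and the E-box in 1 (2.33% beside 7.43%). The CHR element TTTGAA was in 4 (9.30% beside 15.4%). RUNX by TGTGGTT, NF-kappaB by GGG, any 3 bases and TTCC, and STAT by TTC, any 3 bases and GAA were in 2 each (4.65% beside 4.28%, 6.47% and 7.88%). AP-1 by TGACTCA was in HLA-DPB1 alone (2.33% beside 4.92%), and the CArG box in EGR1 alone (2.33% beside 0.0366%). The octamer ATGCAAAT was in none (1.80% of all), nor were CRE by TGACGTCA (1.98%), NRF1 by GCGCATGCG (2.10%), forkhead by TGTTTAC (3.41%), MEF2 by CTAAAAATA (0.472%) and E2F by TTTCCCGC (1.66%) or by TTTGGCGC (0.659%).

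B cell regulators gave POU2AF1 and SOX4. POU2AF1, also called OCA-B, is the B cell coactivator that joins octamer factors on immunoglobulin promoters (chr11:111352252-111455630). It had 2681, 2670.3 and 2554 normalised counts in AU-15330 libraries and 7102, 7439.9 and 7366 in DMSO libraries at 24 h. At 8 h it had 4881, 5620.0 and 5619 under AU-15330 and 6443 and 6692 in DMSO, so that it was lower at both times and far lower at 24 h (-1.45 ± 0.05 against -0.29 ± 0.06). DMSO differed little between the times (0.15 ± 0.06), and AU-15330 was lower at 24 h than at 8 h (-1.01). The octamer factors themselves did not follow it: POU2F2 rose by 0.60 at 24 h and by 0.58 at 8 h (limma adjusted p = 9.6e-05 and 5.1e-04), and POU2F1 was not called (0.10 ± 0.11 and 0.24 ± 0.13).

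SOX4, a transcription factor of early B cell development (chr6:21592768-21598619), had 5241, 5406 and 6034 normalised counts in AU-15330 libraries and 9884, 10286 and 10747 in DMSO libraries at 24 h, and 8646, 8878 and 9746 under AU-15330 and 9637 and 11386 in DMSO at 8 h. The 24 h groups did not overlap and the 8 h groups did. Its relative SOX11, the hallmark factor of mantle cell lymphoma, had 10879, 11510.5 and 11539 under AU-15330 and 4640.4, 5332 and 5199 in DMSO at 24 h. SOX11 thus rose by 1.15 (limma adjusted p = 2.1e-07) where SOX4 was lower, and SOX12, the third of this family, was not called (0.11 ± 0.07). At 8 h SOX11 was at 0.19 ± 0.09 and not called, though called without DMSO replicate 2 at 8 h (limma adjusted p = 0.0082). Among 51 tested regulators of plasma cells and germinal centres 29 were lower, 9 higher and 13 not called at 24 h (median -0.36), and 27, 7 and 17 at 8 h (median -0.29).

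CD79A, a signalling chain of the B cell receptor, crosses into the receptor genes. It had 4586, 4553 and 4638 normalised counts in AU-15330 libraries and 11144, 10640.4 and 11102 in DMSO libraries at 24 h, and 10579, 10956 and 12148 under AU-15330 and 11859 and 12340.1 in DMSO at 8 h. CD79B, with which it forms a pair, had differences of -2.23 at 24 h and already -1.63 at 8 h, where CD79A was at -0.11 ± 0.05.

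Surface and matrix proteins included the member outside the immediate early and chemokine genes with the lowest 24 h difference. TNFRSF19, a receptor of the tumour necrosis factor family also called TROY (chr13:23570370-23676104), had 196, 251 and 276 normalised counts in AU-15330 libraries and 1031, 1210.3 and 1079 in DMSO libraries at 24 h. At 8 h it had 718, 676 and 709 under AU-15330 and 714 and 828 in DMSO. The 24 h difference was -1.96 ± 0.11 and the 8 h one -0.12 ± 0.12, made up of a lower AU-15330 level (-1.35) and a higher DMSO level (0.49) at 24 h than at 8 h.

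ITGB7, the integrin beta chain that with alpha 4 or alpha E serves homing to and retention in the gut (chr12:53191318-53207307), had 109, 196 and 182 normalised counts in AU-15330 libraries and 564, 642 and 607 in DMSO libraries at 24 h, and 344, 381 and 586 under AU-15330 and 463 and 352 in DMSO at 8 h. The 8 h groups overlapped, and the differences were -1.60 ± 0.19 and 0.07 ± 0.22. ITGB7 overlaps ZNF740 on the other strand. ITGA4 was lower at both times (-0.42 ± 0.06 and -0.69 ± 0.07, limma adjusted p = 1.4e-04 and 2.4e-05). ITGAE fell by 0.21 at 24 h (limma adjusted p = 0.016), a call lost without AU-15330 replicate 2 (0.073) or DMSO replicate 3 (0.060) at 24 h.

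KCNA3, the potassium channel Kv1.3 of lymphocytes, had 124, 126 and 188 normalised counts in AU-15330 libraries and 353, 386 and 369 in DMSO libraries at 24 h, and 253, 277 and 322 under AU-15330 and 343 and 339 in DMSO at 8 h. Its cytoplasmic beta subunit KCNAB2 was lower at both times (-1.53 at 24 h and -1.35 at 8 h). COL9A3, a chain of type IX collagen, had 1482, 1231 and 1283 normalised counts in AU-15330 libraries and 2883, 2897 and 2778 in DMSO libraries at 24 h, and 3563, 3340.3 and 2759 under AU-15330 and 3498 and 3974 in DMSO at 8 h, and was the member whose DMSO level was lower at 24 h (-0.38 ± 0.11). KIAA1324, also named ELAPOR1, is a membrane protein of endosomes and lysosomes. It had 11535, 11327 and 11707 normalised counts in AU-15330 libraries and 24674, 23742 and 23079 in DMSO libraries at 24 h, and 22283, 24174 and 21526 under AU-15330 and 26522 and 24496 in DMSO at 8 h, a steady pattern with differences of -1.04 ± 0.05 and -0.17 ± 0.05.

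Members with roles in intracellular signalling follow. PRR5 (Protor-1), a subunit of the mTORC2 kinase complex (chr22:44668547-44737681), had 789.7, 719 and 828 normalised counts in AU-15330 libraries and 2003, 1944 and 1815 in DMSO libraries at 24 h. At 8 h it had 1821, 1794 and 2003 under AU-15330 and 1823 and 1822 in DMSO. Only AU-15330 at 24 h stood apart among the 4 groups, and the differences were -1.24 ± 0.07 and 0.04 ± 0.08. Other mTORC2 subunits did not show such a drop: RICTOR was not called (-0.09 ± 0.11), MLST8 fell by 0.14 and MAPKAP1 rose by 0.25 at 24 h (limma adjusted p = 0.0093 and 0.032). The MAPKAP1 call was lost without AU-15330 replicate 2, AU-15330 replicate 3 or DMSO replicate 2 at 24 h (0.13, 0.052 and 0.13).

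SH2B2, an adaptor of receptor and Janus kinases also called APS (chr7:102285091-102321711), had 1868, 1982 and 1848 normalised counts in AU-15330 libraries and 4005, 4239.6 and 4556 in DMSO libraries at 24 h, and 4096, 4258 and 4624 under AU-15330 and 4299 and 3956 in DMSO at 8 h. It shared the pattern of PRR5, with -1.14 ± 0.06 at 24 h and 0.07 ± 0.07 at 8 h. Its relative SH2B1 was not called at 24 h (-0.11 ± 0.12). SH2B3, a negative regulator of cytokine signalling, was lower than DMSO by 0.38 at 24 h and 0.19 at 8 h. The SH2B3 level was higher at 24 h than at 8 h in both arms, by 0.27 ± 0.04 under AU-15330 and 0.46 ± 0.04 in DMSO.

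**Figure D5:**
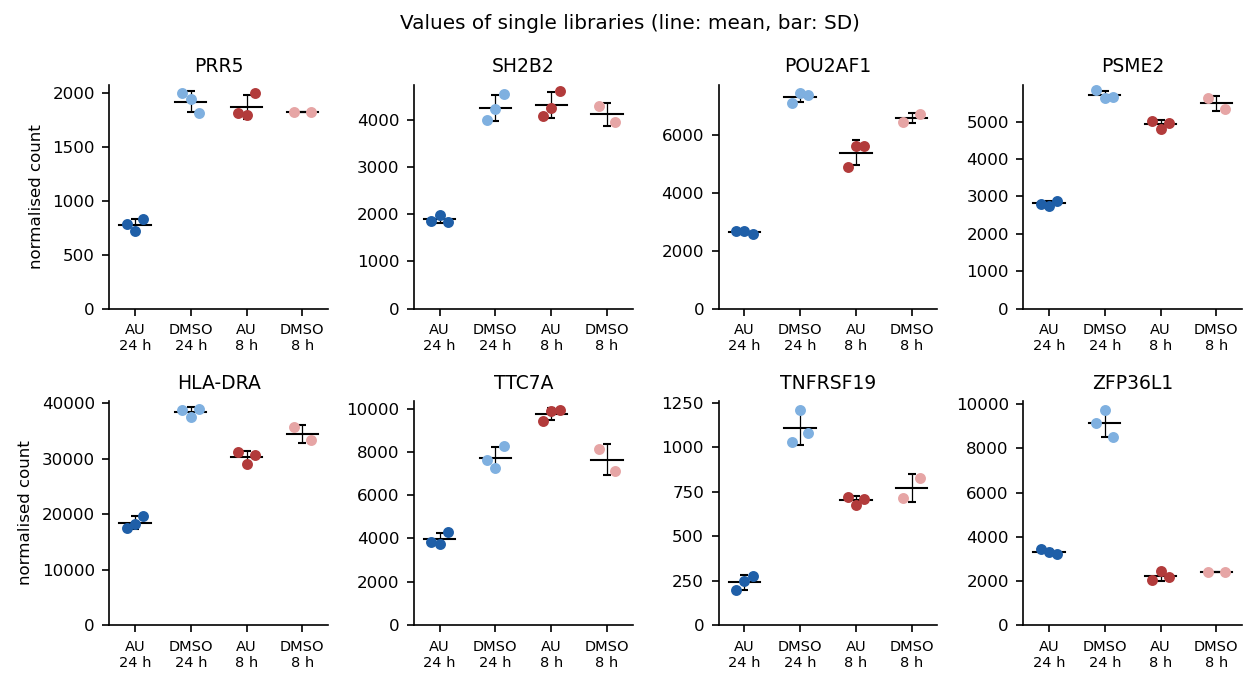
Normalised counts of 8 members in each library (points), with group means (lines) and SD (bars), by arm and time. In PRR5, SH2B2, PSME2 and HLA-DRA the AU-15330 libraries at 24 h lie below all others, TTC7A is also raised under AU-15330 at 8 h, and in ZFP36L1 the DMSO libraries at 24 h (8502 to 9749) lie above all others.

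Of protein kinase C, PRKCE and PRKCA are members. PRKCE, a calcium-independent form (chr2:45651345-46187990), had 885, 953 and 998 normalised counts in AU-15330 libraries and 2267, 2406 and 1977 in DMSO libraries at 24 h, and 1392, 1829 and 2027 under AU-15330 and 2125 and 1911 in DMSO at 8 h. PRKCA, a calcium-dependent form (chr17:66302636-66810743), had 2331, 2296 and 2324 normalised counts in AU-15330 libraries and 4103, 4399 and 4020.2 in DMSO libraries at 24 h, and 3087, 3406 and 3076 under AU-15330 and 4055 and 3520.5 in DMSO at 8 h. Both were lower in every AU-15330 library at 24 h, and at 8 h PRKCA was below DMSO in every library while the PRKCE groups overlapped. PRKCB, the form tied to B cell receptor signalling, was not called at 24 h (0.06 ± 0.21) and was higher by 1.00 at 8 h (limma adjusted p = 0.0051). PRKCD and PRKCZ were lower at both times (-0.67 and -0.83 at 24 h), and PRKCI was called at neither.

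Small GTPases are switched on by exchange factors and off by GTPase-activating proteins, and members came from both sides. RASGRP2, an exchange factor for Rap (chr11:64726911-64745456), had 948, 879.5 and 779 normalised counts in AU-15330 libraries and 1975, 1962 and 1965 in DMSO libraries at 24 h, and 1578, 1601 and 1868 under AU-15330 and 1989 and 2057 in DMSO at 8 h. Its differences were -1.13 ± 0.08 and -0.26 ± 0.09, whereas its relatives RASGRP1 and RASGRP3 were at -2.24 and -1.86 at 24 h and at -1.34 and -1.56 at 8 h. RASA3, which inactivates Ras and Rap (chr13:113977783-114132611), had 1308, 1314 and 1365 normalised counts in AU-15330 libraries and 2308, 2386 and 2418 in DMSO libraries at 24 h, and 2011, 2266 and 2183 under AU-15330 and 2202 and 2330.4 in DMSO at 8 h. RASA1 rose by 0.33 at 24 h (limma adjusted p = 0.0013), and RASA2 was at -0.26 ± 0.08, called with all libraries (limma adjusted p = 0.019) but not without AU-15330 replicate 1, AU-15330 replicate 2 or DMSO replicate 2 at 24 h (0.058, 0.080 and 0.069).

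SIPA1, which inactivates Rap (chr11:65638097-65650930), had 915, 1297 and 923 normalised counts in AU-15330 libraries and 1878, 1458 and 2353 in DMSO libraries at 24 h, and 1195, 1465 and 1020.4 under AU-15330 and 896 and 1086 in DMSO at 8 h. The gap at 24 h (-0.82 ± 0.19) lay mostly in a DMSO level higher than at 8 h (0.88 ± 0.21), and SIPA1 met the rule in 8 of the 11 settings that left out 1 library. SIPA1L3, a relative, was lower at 24 h (-0.37) and higher at 8 h (1.27), both called by limma. SIPA1L1, another relative, was higher at both times (0.31 and 0.36, limma adjusted p = 0.013 and 0.014). Its 8 h call was lost without DMSO replicate 2 at 8 h (0.095). SPRY2, an inducible inhibitor of receptor signalling to Ras (chr13:80335976-80340951), had 663, 528 and 568 normalised counts in AU-15330 libraries and 1656, 1522 and 1287 in DMSO libraries at 24 h, and 316, 273 and 266 under AU-15330 and 340.3 and 269 in DMSO at 8 h. AU-15330 and DMSO were both higher at 24 h than at 8 h, by 0.90 and 2.09, so SPRY2 did not fall between the times in either arm. SPRY1 was lower than DMSO by 0.44 at 24 h, and SPRED1 and SPRED2 were not called there. The SPRY1 level too was higher at 24 h than at 8 h in both arms, by 0.71 ± 0.07 under AU-15330 and 0.81 ± 0.08 in DMSO. Of 54 tested genes of Ras, MAPK and small GTPase signalling 24 were lower, 17 higher and 13 not called at 24 h (median -0.10), and 17, 10 and 27 at 8 h (median -0.07).

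TTC7A, a scaffold that holds the lipid kinase PI4KA at the plasma membrane (chr2:46916157-47076137), had 3842, 3732 and 4305 normalised counts in AU-15330 libraries and 7612, 7266 and 8289 in DMSO libraries at 24 h. At 8 h it had 9406, 9899 and 9915 under AU-15330 and 8151 and 7131 in DMSO. It was among the members higher at 8 h, by 0.35 ± 0.08, before the 24 h difference of -0.95 ± 0.07, and the groups did not overlap at either time. PI4KA fell by 0.22 at 24 h, and TTC7B was not called there (-0.11 ± 0.10). PXK, a kinase-like protein with a phosphoinositide-binding PX domain, showed the same crossing, with 1100.2, 1186 and 1272 normalised counts in AU-15330 libraries and 2250.5, 2251 and 2248 in DMSO libraries at 24 h, and 2079.5, 2446 and 2857 under AU-15330 and 2038 and 1903 in DMSO at 8 h. Its 8 h difference was 0.30 ± 0.11, and 0.19 without AU-15330 replicate 3 at 8 h. TTC7A overlaps MCFD2 on the other strand.

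Cytoskeletal members were PDLIM1, SPTBN1, DPYSL2 and IFFO2. PDLIM1, a PDZ and LIM protein that binds alpha-actinin (chr10:95237572-95291024), had 14746, 15165 and 14343 normalised counts in AU-15330 libraries and 34798, 35395 and 33109 in DMSO libraries at 24 h, and 22845, 26659.6 and 26561 under AU-15330 and 29204 and 31559 in DMSO at 8 h. SPTBN1, a beta spectrin of the membrane skeleton (chr2:54456285-54671445), had 9762, 10596 and 11379.9 normalised counts in AU-15330 libraries and 20827, 22614 and 21263 in DMSO libraries at 24 h, and 15772, 16943 and 14900.2 under AU-15330 and 20466 and 18289 in DMSO at 8 h. For both genes the 24 h gap (-1.22 ± 0.06 and -1.03 ± 0.07) came after a smaller one at 8 h (-0.26 ± 0.06 and -0.29 ± 0.07), without overlap of the groups. SPTAN1, the alpha spectrin that binds it, fell by 0.56 at 24 h (limma adjusted p = 3.6e-04). DPYSL2, which binds tubulin and relays semaphorin signals, had 3769.8, 4185 and 4289 normalised counts in AU-15330 libraries and 7448, 7433 and 7457 in DMSO libraries at 24 h, and 5524, 6303 and 6893 under AU-15330 and 7850.0 and 7104 in DMSO at 8 h. IFFO2, named for its likeness to intermediate filament proteins, was near the minimum level, with 111, 128 and 96.2 normalised counts in AU-15330 libraries and 269, 293 and 286 in DMSO libraries at 24 h, and 219.9, 305 and 257 under AU-15330 and 281 and 358 in DMSO at 8 h.

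Metabolic enzymes and carriers gave MPC1, BDH1, NPL and MGAT5B. MPC1 forms the mitochondrial pyruvate carrier together with MPC2. It had 718, 557 and 683 normalised counts in AU-15330 libraries and 1478, 1307 and 1463 in DMSO libraries at 24 h, and 1472, 1315 and 1345 under AU-15330 and 1775 and 1597 in DMSO at 8 h. MPC2 went the other way: it had 4632, 4629 and 4821 under AU-15330 and 3508, 3454 and 3385 in DMSO at 24 h, a rise of 0.44 (limma adjusted p = 4.9e-05), and rose by 0.52 at 8 h (limma adjusted p = 3.8e-05). The 2 subunits thus differed in sign at both times. BDH1, the mitochondrial enzyme that interconverts ketone bodies, had 867, 633 and 748 normalised counts in AU-15330 libraries and 1581, 1419 and 1381 in DMSO libraries at 24 h, and 1524, 1487 and 1579 under AU-15330 and 1916 and 1404 in DMSO at 8 h. A second entry of BDH1 was less changed, and the sum of both had a 24 h difference of -0.75, which does not meet the rule. OXCT1, the next step of ketone body use, was lower at 24 h (-1.14 ± 0.36, limma adjusted p = 0.02), a call lost without AU-15330 replicate 3 (0.081) or DMSO replicate 2 (0.078) at 24 h.

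NPL, which splits sialic acid, had 964, 978 and 1056 normalised counts in AU-15330 libraries and 1912, 1656 and 1846 in DMSO libraries at 24 h, and 1235, 1209.6 and 988 under AU-15330 and 1269 and 1522 in DMSO at 8 h, and met the rule in 5 of the 11 settings without 1 library, the fewest of any member. MGAT5B, a transferase that branches glycans, had 386, 419 and 429.8 normalised counts in AU-15330 libraries and 829.6, 909 and 786 in DMSO libraries at 24 h, and 853, 782 and 793 under AU-15330 and 771 and 895 in DMSO at 8 h, with differences of -0.93 ± 0.08 and -0.04 ± 0.09. Its relative MGAT5 fell by 0.28 at 24 h (limma adjusted p = 0.01).

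Proteins that bind RNA or nucleosomes were CELF2, ZFP36L1 and HMGN5. CELF2, a splicing regulator of lymphocytes (chr10:10798397-11336675), had 2228, 2366 and 2727 normalised counts in AU-15330 libraries and 6438, 5915 and 6623 in DMSO libraries at 24 h, and 3718, 4047 and 4250.4 under AU-15330 and 4304 and 4399 in DMSO at 8 h. The differences were -1.36 ± 0.07 and -0.12 ± 0.08, and CELF1, its relative, rose by 0.17 at 24 h and fell by 0.22 at 8 h. ZFP36L1, which directs decay of messages with AU-rich elements, had 3448, 3315 and 3203 normalised counts in AU-15330 libraries and 9154, 9749 and 8502 in DMSO libraries at 24 h, and 2017, 2425 and 2179 under AU-15330 and 2406 and 2410.4 in DMSO at 8 h. Under AU-15330 it was higher at 24 h than at 8 h by 0.58 ± 0.07, and in DMSO by 1.90 ± 0.08. At 24 h ZFP36 was lower than DMSO by 0.62 and ZFP36L2 higher by 0.28. Between 24 h and 8 h ZFP36 differed by 0.18 ± 0.10 under AU-15330 and by 0.76 ± 0.11 in DMSO. HMGN5, which binds nucleosomes and loosens chromatin, had 501, 414 and 505 normalised counts in AU-15330 libraries and 875, 848 and 894 in DMSO libraries at 24 h, and 715, 662 and 679 under AU-15330 and 644 and 742 in DMSO at 8 h.

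Members of the Golgi, of vesicle traffic and of the endoplasmic reticulum follow, though the list of endocytosis and membrane traffic held none of them. GOLGB1, the Golgi tether giantin, had 1501, 1654 and 906 normalised counts in AU-15330 libraries and 2284, 5148 and 1858 in DMSO libraries at 24 h, and 1296, 1970.0 and 2364 under AU-15330 and 2555 and 1972 in DMSO at 8 h, with DMSO replicate 2 far above the others at 24 h. Without that library its 24 h difference was -0.63 in place of -1.06, which no longer meets the rule, and it met the rule in 7 of the 11 settings that left out 1 library. OSBPL3, a lipid-transfer protein related to the oxysterol-binding protein, had 365, 327 and 341 normalised counts in AU-15330 libraries and 1141, 567 and 478 in DMSO libraries at 24 h, and 263, 685 and 556 under AU-15330 and 456 and 391 in DMSO at 8 h. Without DMSO replicate 1 at 24 h its difference was -0.52 in place of -0.87, which no longer meets the rule. TRAPPC6A, a subunit of the TRAPP tether, had 509, 576 and 539 normalised counts in AU-15330 libraries and 1089.6, 981 and 1079 in DMSO libraries at 24 h, and 786, 718 and 828 under AU-15330 and 949 and 989 in DMSO at 8 h, and its relative TRAPPC6B was not called at 24 h (0.17 ± 0.08). ERC1, a scaffold of the cell cortex and of NF-kappaB signalling, had 3356, 4532 and 5529 normalised counts in AU-15330 libraries and 7423, 9655 and 8105 in DMSO libraries at 24 h, and 4389, 4849.5 and 4542 under AU-15330 and 5503 and 5565 in DMSO at 8 h. TXNDC11, a thioredoxin-domain protein of the endoplasmic reticulum, had 2487, 2559.6 and 2369 normalised counts in AU-15330 libraries and 5246, 4139 and 4506 in DMSO libraries at 24 h, and 2854, 2852 and 3022 under AU-15330 and 3188 and 3232 in DMSO at 8 h. In ERC1 and TXNDC11 the level differed more between 24 h and 8 h in DMSO (0.59 and 0.51) than under AU-15330 (-0.07 and -0.23).

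ENDOD1, which carries an endonuclease-like domain, had 366, 400.2 and 394 normalised counts in AU-15330 libraries and 893, 870.0 and 964 in DMSO libraries at 24 h, and 338, 369 and 389.6 under AU-15330 and 432 and 413 in DMSO at 8 h. Under AU-15330 the difference between 24 h and 8 h was smaller than its error (0.07 ± 0.08), and DMSO was higher at 24 h by 1.01 ± 0.09. C12orf57, KRBA1 and RCBTB2 complete the genes outside the excluded groups. C12orf57 had 2883, 2837 and 2759 normalised counts in AU-15330 libraries and 6184, 5456 and 5911 in DMSO libraries at 24 h, and 4611, 3955 and 4296 under AU-15330 and 5427 and 5041 in DMSO at 8 h. KRBA1 and RCBTB2 had differences of -0.93 ± 0.15 and -0.80 ± 0.12 at 24 h, and RCBTB2 lies on the strand opposite RB1.

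CCL3L1 and CCL3 encode near-identical chemokines that attract monocytes and T cells, so reads can be shared between them. CCL3L1 had 4.84, 14.2 and 17.4 normalised counts in AU-15330 libraries and 347, 424 and 289 in DMSO libraries at 24 h, and 1.28, 6.59 and 5.99 under AU-15330 and 15.2 and 16.8 in DMSO at 8 h. CCL3 had 131, 108 and 77.1 normalised counts in AU-15330 libraries and 876, 901 and 710.4 in DMSO libraries at 24 h, and 17.4, 20 and 29.1 under AU-15330 and 13.2 and 11.9 in DMSO at 8 h. In both the 24 h DMSO libraries stood alone, and AU-15330 at 24 h was above AU-15330 at 8 h in CCL3 (1.00 ± 0.14). Immediate early genes are those switched on within minutes of a stimulus. EGR1 had 3287, 2963 and 1916 normalised counts in AU-15330 libraries and 4129, 7616 and 5618 in DMSO libraries at 24 h, and 1779, 1854 and 1230.0 under AU-15330 and 359 and 216 in DMSO at 8 h, so it was higher under AU-15330 at 8 h and lower at 24 h. FOS crossed in the same way (-1.37 ± 0.21 at 24 h and 0.98 ± 0.23 at 8 h), and EGR3 was at -2.68 ± 0.24 and 0.32 ± 0.27. The 8 h value of EGR3 was 0.05 without AU-15330 replicate 2 and 0.50 without AU-15330 replicate 1 at 8 h. EGR2 was not called at 24 h (0.05 ± 0.16) after a rise of 2.10 at 8 h, and NAB2, a corepressor of EGR factors, rose by 1.23 and 0.36. Of 30 tested immediate early genes 15 were lower, 12 higher and 3 not called at 24 h (median -0.09), and 6, 11 and 13 at 8 h (median 0.20).

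Across 39 gene lists, 22 of the 49 members were in at least 1, and 11 lists held a member. The share of all genes in a list is not given here, so nothing is read from these counts. The 28 lists without one included DNA replication, mitosis, cholesterol and fatty acid synthesis, oxidative phosphorylation and ribosome biogenesis. Single members belonged to adhesion (ITGB7), actin cytoskeleton (SPTBN1), ion channels and calcium (KCNA3), semaphorins and plexins (DPYSL2), cytokines and chemokines (CCL3) and B cell receptor signalling (CD79A). Of 48 genes paired with members as partners or relatives, 28 were lower, 9 higher and 11 not called at 24 h (median -0.27), and 19 were lower, 7 higher and 22 not called at 8 h (median -0.14). Over all tested entries 26.2% were called lower and 24.7% higher at 24 h, and 21.4% and 22.9% at 8 h. HLA-F, HLA-DRA, HLA-DQB1 and HLA-DPB1 lie in the MHC on chromosome 6. Gene bodies of the 48 members with coordinates had a median length of 38856.5 bp, beside 31216.5 bp over 11746 tested entries.

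The measure was also read in replicates that had no part in the choice. In the first reading the rule used replicates 1 and 2 at 24 h. At 8 h it left out AU-15330 replicate 3 and used 1 DMSO library. It then chose 48 genes, 34 of them among the 49. In replicate 3 these 48 had a median difference of -0.96 (range -2.71 to -0.23), 34 were at -0.8 or lower and 48 were below 0. Read in replicate 1 the median was -1.04 over 57 genes, and in replicate 2 it was -1.03 over 49, with 55 and 48 below 0. The 8 h libraries were the same in all 3 readings. Of the 49 members, 23 met the rule without each of the 11 libraries in turn.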

How the data were processed

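RNA of Z138 cells was sequenced in 12 samples, of which 11 libraries were analysed. The authors deposited log2 values for 20318 gene entries; per the submitters' processing notes the tools were kallisto 0.46.1 after Trimmomatic 0.40, and DESeq2 1.24.0 in R 4.3.2, with build GRCh38.p13. Per the labels' protocols, a kit with poly(A) selection or one with ribosomal RNA depletion was used, not given by sample, and the labels do not say that replicates were separate cultures, so p-values measure the spread between these samples. The lowest value, 10.36, is shared by all libraries, as in a variance-stabilising transform, which was inverted to normalised counts. Of low values, 53.9% to 56.4% were within 0.02 of whole counts, so no count model was used. A column identical to another (1) was not used.

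For a symbol with several entries the one with the highest mean was used. Coordinates are those of the symbol on the primary assembly, where the entries used for HLA-DRA, HLA-DPB1 and CCL3 do not lie. Entries with 60 normalised counts in 3 libraries (12707) were fitted in limma 3.58.1 (R 4.3.3), with 1 mean per group, a mean-dependent prior and 7 residual degrees of freedom. The deposited scale gave the adjusted p-values; differences and SE were taken on log2(normalised count + 60), which understates folds of low genes. The design assumed log CPM. The fit was tested on simulated data. Held-out readings in replicates 1 and 2 were added after seeing the data. Members and lists were chosen with earlier results of these data known, and partners after the members' names were seen, not for their values. Named were the 20 lowest 24 h differences, 8 highest DMSO levels at 24 h, 5 highest 8 h differences, 3 genes each side of a threshold and up to 4 members per list, outside the excluded groups; other genes were named after their values were seen. Intervals cover no error beyond these libraries. Figures were drawn with Matplotlib 3.10.9 and tables made with pandas 2.3.3 and NumPy 2.4.6 under Python 3.11.15.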

Additional observations from a re-analysis of the deposited data

Results flagged for a closer look

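Among the genes set beside the members, 20 of 48 had a treatment effect that differed between 24 h and 8 h in limma's interaction test (Benjamini-Hochberg adjusted, deposited scale), where 2351 of 12707 tested entries (18.5%) had one, 1396 lower and 955 higher. Values are the 24 h effect less the 8 h effect on log2(normalised count + 60). The adjusted p-values come from the other scale and do not test these values. With its SE on the scale of the values, RASGRP3 was at -0.29 ± 0.14 and EGR2 at -2.05 ± 0.24. In antigen presentation the 24 h effect was the lower one in B2M (-0.54, adjusted p = 2.0e-04), CD74 (-0.47, adjusted p = 0.0019), CIITA (-0.82, adjusted p = 0.0017), HLA-DPA1 (-0.51, adjusted p = 0.0024), HLA-DQA1 (-0.43, adjusted p = 0.0081), HLA-DRB1 (-0.62, adjusted p = 1.8e-04), PSMB8 (-0.58, adjusted p = 0.04), PSMB9 (-0.95, adjusted p = 0.0037), PSME1 (-1.16, adjusted p = 7.2e-06). It was also the lower one in CD79B (-0.60, adjusted p = 0.0025), EGR2 (-2.05, adjusted p = 0.02), MLST8 (-0.20, adjusted p = 0.029), RASGRP1 (-0.90, adjusted p = 0.02), RASGRP3 (-0.29, adjusted p = 0.017), SH2B3 (-0.19, adjusted p = 0.036), SIPA1L3 (-1.64, adjusted p = 1.9e-05), ZFP36 (-0.58, adjusted p = 0.011). The 24 h effect was the higher one in CELF1 (0.40, adjusted p = 0.0038), NAB2 (0.87, adjusted p = 5.4e-05), SOX11 (0.96, adjusted p = 2.4e-04). For the members themselves such a difference is what the rule selects.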

How the results depend on the processing

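The rule gave 49 genes. A 24 h threshold of -0.6 gave 102 and one of -1 gave 27, and an 8 h threshold above -0.2 gave 28. Other settings gave 35 (minimum level of 1000) to 72 (8 h threshold of -0.4), and quantile normalisation gave 52, of which 40 were shared. Leaving out 1 library at a time gave 44 to 54 genes, with 40 to 48 of the 49 among them. Without 1 library, DMSO at 24 h against 8 h gave 663 to 1355 calls in place of 1288, and members called lower at 8 h numbered 6 to 15 in place of 14; the cause was not tested. Held-out medians were -1.04 and -1.03 in replicates 1 and 2 in place of -0.96.

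Among alternative values of the members' differences 2848 stayed within the replicate SD and 92 did not. Among tests of single genes 6717 kept their call, 130 lost it and 71 gained one. With the replicate number as a block, 6448 entries were called at 24 h in place of 6472, 5439 at 8 h in place of 5629, 2109 for the difference between the times in place of 2351, 4990 for AU-15330 over time in place of 5002 and 1082 for DMSO over time in place of 1288. Samples of the same number deviated together little (r between -0.035 and 0.044 over genes), which does not show whether the numbers pair samples. At 24 h r was 0.041, 0.030 and 0.044 for the same number and between -0.061 and 0.019 for different numbers. At 8 h the 2 DMSO libraries give r values that mirror each other by construction. The DMSO group of 2 at 8 h limits what the 8 h comparison and both time comparisons can show.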
